A study of Mus musculus with 6 samples.

Results

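This report describes the transcripts of 31 genes for integrin subunits and the proteins that join them to the actin cytoskeleton, in a mouse pre-osteoblast line held in simulated microgravity. The genes were chosen by name (16 integrin subunits and 15 adaptors, kinases and caveolins), and every probe set that the array's annotation assigns to one of them was taken. This gave 75 probe sets of 29 genes out of 45101 on the array. Itga11 and Ptk2 were not analysed here. Of the 75 probe sets, 58 of 27 genes passed the filter on dim signals and were tested among 27022, while Itga7 and Itgb3 were too dim.

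The cells were 2T3 pre-osteoblasts, a clonal line from mouse calvaria immortalised with a viral T antigen, so all arrays describe 1 clone. Total RNA was taken after 3 days from 3 samples labelled static and 3 labelled with the letter R, here called rotated, and each sample was hybridised to 1 Affymetrix array. In a rotating wall vessel, slow turning of a full culture chamber keeps cells from settling, and the titles of both groups name it; what the static cells grew in is not given in the sources used here. For static 2 and static 3 the title and the source field disagree, the latter naming simulated microgravity, and the title was followed. Whether each sample was its own culture is not stated, so the p-values speak only of the spread among these 6 arrays, which may be technical.

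Integrins are paired transmembrane receptors in which an alpha subunit, which largely sets the ligand, joins a beta subunit, whose short cytoplasmic tail recruits talin and kindlin. In osteoblasts they anchor the cell to collagen, fibronectin and laminin and pass mechanical load to the cytoskeleton through vinculin, zyxin and the complex of integrin-linked kinase, PINCH and parvin. Paxillin, p130Cas and Src relay the signal, and caveolins shape membrane pits that flatten under tension. Each of these steps was represented on the array by at least 2 tested genes.

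The transcript that stood apart most was Itga6, a laminin-receptor alpha subunit, whose mean in the rotated group exceeded the static mean 2.39-fold (a log2 difference of 1.26 ± 0.27, SE, n = 3 per group). Itgb1, the beta subunit shared by most matrix-binding integrins, was 1.92-fold lower (-0.94 ± 0.34), and Itga1, a collagen-receptor alpha subunit, was 1.99-fold lower (-0.99 ± 0.38). Pxn, the adaptor paxillin, was 1.43-fold higher by its brightest probe set (0.52 ± 0.21). No member passed after adjustment over all probe sets: limma with Benjamini-Hochberg adjustment called 0 of 27 members, and the smallest adjusted p of a member was 0.491. The same fit called 0.0% of the 27022 probe sets, with 2228 of them at an unadjusted p under 0.05.

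At an unadjusted p under 0.05 in limma there were 4 of the 27 members (14.8%), 2 higher and 2 lower, against 8.24% of all 12554 named genes (4.49% higher and 3.74% lower). The groups were fully separated in 6 members (22.2%), with Itga3, Itga6 and Pxn higher and Itga8, Itgb1 and Lims1 lower, against 15.4% of all named genes (8.29% higher and 7.11% lower). For Itga8 and Lims1 this held only after quantile normalization. In the deposited values of Itga8, rotated 1 (90.8) lay above static 3 (82.9), and in those of Lims1 rotated 2 (6674.2) lay above static 3 (6568.5). The median log2 difference of the members was -0.07, beside 0.03 over all named genes, and 12 members stood higher and 15 lower, where 46.8% of all named genes and 47.4% of all probe sets stood lower. The median was 0.06 without rotated 1, -0.20 without rotated 2, -0.16 without static 2 and -0.01 without static 1. The count at an unadjusted p under 0.05 was 1 without static 1 and 2 without rotated 1.

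**Figure D1:**
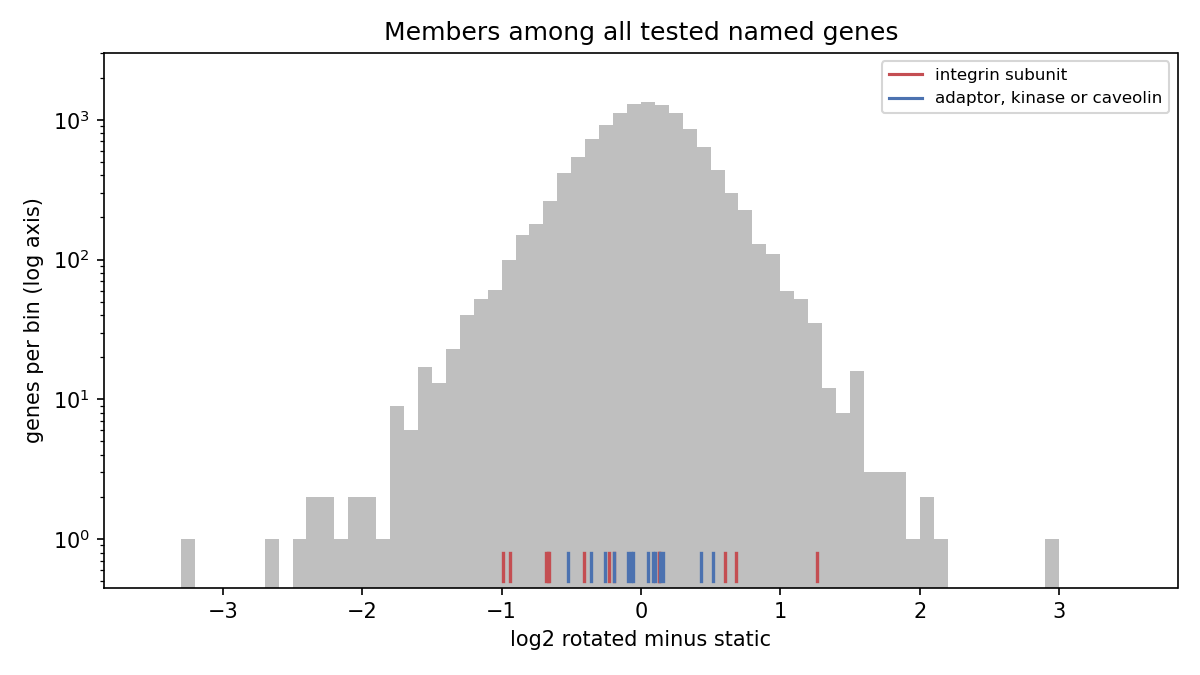
Histogram of the log2 difference (rotated minus static) of 12554 named genes, with genes per bin on a log axis; short lines at the bottom mark the 27 tested members, red for integrin subunits and blue for the others. The members span -0.99 to 1.26, inside the range of all genes, and the integrins hold both ends.

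The arrays differed in quality. For the actin control probes, the 3' signal divided by the 5' signal was 3.21 in rotated 1 and between 1.29 and 1.57 on the other arrays. For the transferrin receptor this ratio was 8.92 in rotated 1 and 1.62 to 3.71 elsewhere. For Gapdh it was 0.875 and 0.748 to 0.867, so that control did not set rotated 1 apart. The 10th percentile of the deposited signal was 22.1 in static 1 and 4.5 to 7.2 elsewhere. Rotated 1 was the lowest of the 6 arrays in 23 of the 58 tested member probe sets (39.7%), against 25.1% of all tested probe sets. All 9 tested osteoblast markers stood lower in the rotated samples, against 46.8% of all named genes. Of these markers 6 had an unadjusted p under 0.05 in limma, where 3.74% of all named genes stood lower at that level. These 6 were Sp7 (-0.84 ± 0.34), Dlx5 (-1.08 ± 0.32), Col1a1 (-0.79 ± 0.34), Col1a2 (-0.36 ± 0.16), Omd (-3.27 ± 0.78) and Cdh11 (-0.51 ± 0.15). Alpl, Ibsp and Pth1r stood at -0.28 ± 0.47, -0.55 ± 0.47 and -0.35 ± 0.94. The median deviation of the 9 from their static means was -0.9, -0.64 and -0.49 in rotated 1, rotated 2 and rotated 3. The summed level of the 9 was 54700 to 58900 in the static and 30900 to 45200 in the rotated samples. Most of that sum came from Col1a2, Cdh11 and Col1a1, with static means of 14.82, 13.59 and 13.31. For Col1a1, rotated 1 read 11.66, beside 12.67 and 13.23 in rotated 2 and rotated 3. Runx2 and Bglap, also in that list, were not analysed here. The part of these markers in the members' values was not tested, and in bulk RNA fewer cells of a type and less RNA per cell cannot be told apart. Of markers for other cell types, 4 of 8 leukocyte, 1 of 6 endothelial, 2 of 6 epithelial, 3 of 6 adipocyte and 3 of 6 muscle genes were bright enough to be tested. None of the tested leukocyte, endothelial or muscle markers had an unadjusted p under 0.05, while Epcam (-0.96 ± 0.40) and the fatty acid carrier gene Fabp4 (-0.59 ± 0.23) did. The summed level was 278 to 367 in the static and 179 to 285 in the rotated samples for the epithelial list, 4220 to 6420 and 4090 to 4630 for the adipocyte list, and 2880 to 4700 and 3380 to 4760 for the leukocyte list. For the endothelial list it was 83.5 to 89.6 in the static and 53.1 to 104 in the rotated samples, and for the muscle list 191 to 411 and 206 to 235. Pecam1, Cdh5, Cdh1, Adipoq and Myod1 were among the genes of these lists that fell below the filter. Others were bright, with static means of 11.98 for Fabp4, 11.6 for Cd14, 10.3 for Lpl and 7.95 for Epcam.

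**Figure D2:**
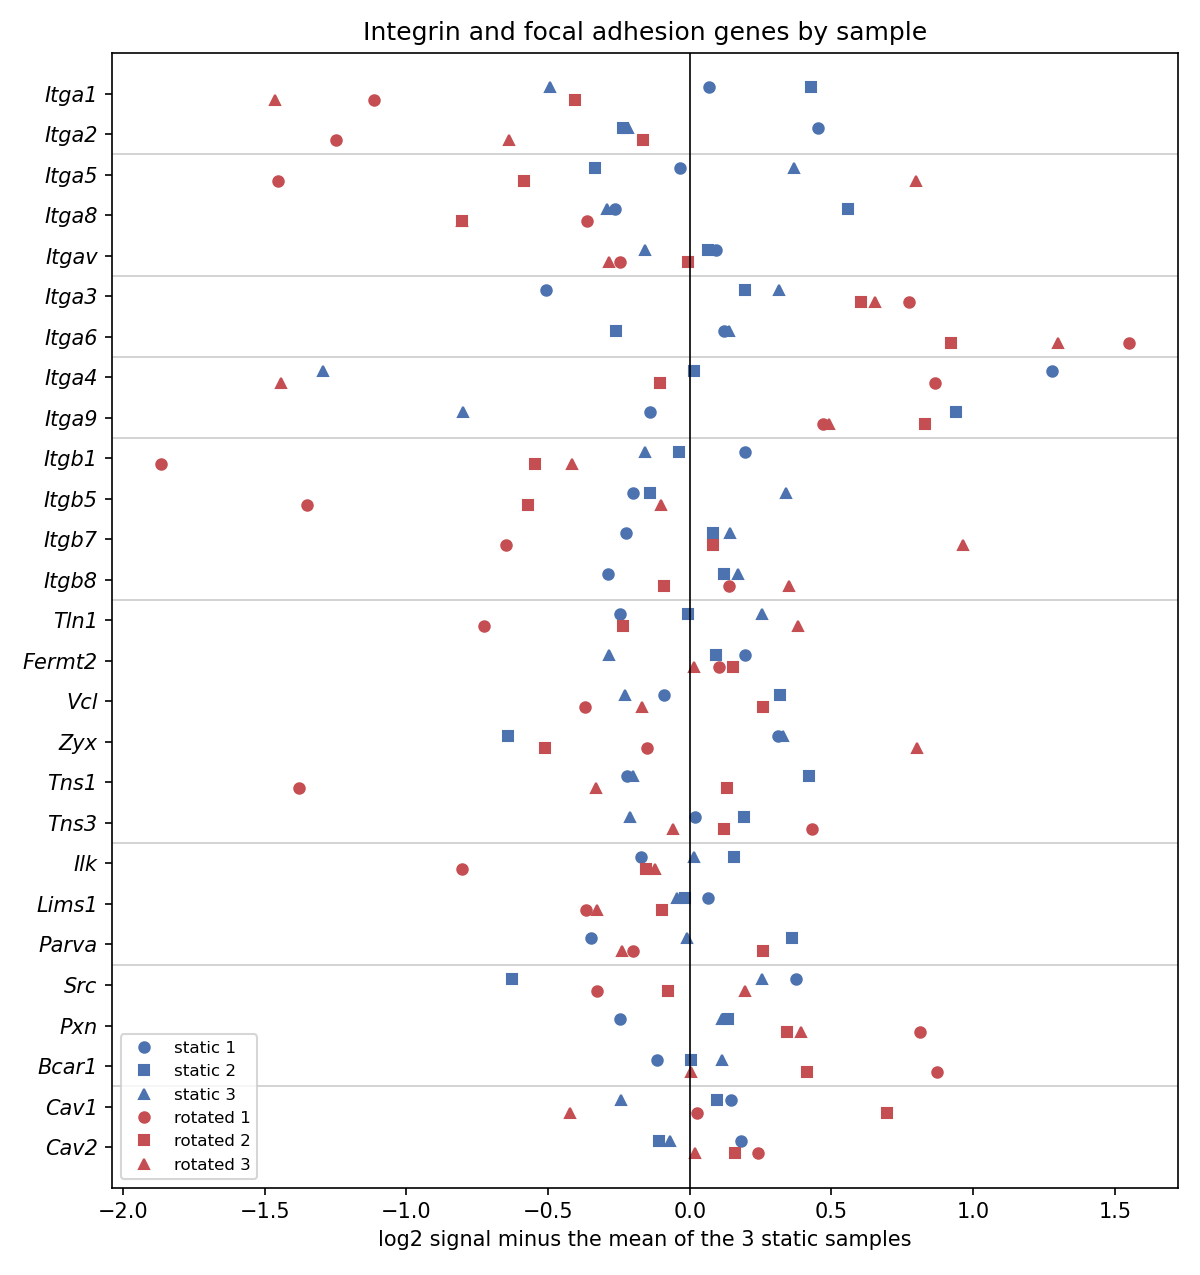
Log2 signal of the brightest tested probe set of each of the 27 members, with the mean of the 3 static samples subtracted (horizontal axis) and 1 symbol per sample; grey lines separate functional groups. Itga3 and Itga6 have all 3 rotated samples right of the static ones, and rotated 1 lies far to the left for Itgb1, Itgb5, Itga5 and Tns1.

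Among the laminin-receptor alpha subunits, Itga6 had a deposited signal of 290.7, 185.4 and 268.1 in static 1, static 2 and static 3 and of 663.5, 460.0 and 636.0 in rotated 1, rotated 2 and rotated 3. In the deposited values, which were already scaled, every rotated array was thus brighter than every static array. After quantile normalization the log2 signals of this probe set were 8.10, 7.72 and 8.12 in the static and 9.53, 8.90 and 9.28 in the rotated samples. The 95% confidence interval of the difference ran from 0.65 to 1.87, with an unadjusted p of 0.00105 and an adjusted p of 0.491 in limma. The other tested probe set of the gene read 7.52, 6.25 and 6.81 in the static samples and 7.55, 8.04 and 8.09 in the rotated ones. It differed by 1.03 ± 0.38, with static 1 and rotated 1 almost level and the groups otherwise well separated. In the deposited values of this second probe set static 1 (211.2) lay above rotated 1 (160.3), so the groups overlapped there. Its difference was 0.73 without static 2. Without static 1 and rotated 1 together the differences were 1.17 and 1.54, so neither outlying array carried the direction. A fit that included the actin ratio gave 1.03 and 1.26.

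Itga3, the alpha subunit of another laminin receptor, had log2 signals of 6.71, 7.41 and 7.53 in the static and 7.99, 7.82 and 7.87 in the rotated samples. The rotated values lay above the static ones by a margin smaller than the static spread, and the difference was 0.68 ± 0.32 (unadjusted p 0.0593 and adjusted p 0.609 in limma). Without static 1, the lowest array for this gene, it was 0.42. Itga7, the laminin receptor subunit of muscle, was below the filter on every array but static 3, at 5.65, 5.59 and 6.36 in the static and 5.56, 4.89 and 5.64 in the rotated samples. Its groups overlapped.

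The collagen receptors pointed the other way in value. Itga1 had log2 signals of 8.06, 8.42 and 7.50 in the static and 6.88, 7.59 and 6.53 in the rotated samples. Rotated 2 lay just above static 3, so the groups overlapped, with a 95% confidence interval of the difference from -1.84 to -0.14 (unadjusted p 0.0268 and adjusted p 0.593 in limma). With array weights, which count static 3 and rotated 2 most, the difference was -0.46. The other Itga1 probe set, too dim to be tested, stood at -1.32 without overlap. Itga2, the other collagen-receptor subunit tested, differed by -0.68 ± 0.43, with rotated 2 (6.57) inside the static range of 6.50 to 7.19. It stood at -0.40 without rotated 1, at -0.17 without static 1 and rotated 1 together and at -0.21 with array weights.

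The alpha subunits of receptors that read the Arg-Gly-Asp motif of fibronectin and vitronectin gave negative differences too, although with median centring Itgav stood at 0.02 and with actin as a covariate Itga5 stood at 0.41. Itgav, the alpha subunit of the vitronectin receptors, differed by -0.19 ± 0.18 at its brightest probe set, with static signals of 12.31, 12.28 and 12.06 and rotated signals of 11.97, 12.21 and 11.93. The other tested probe sets of Itgav gave larger differences, -1.28 ± 0.59 (-0.45 ± 0.23 without rotated 1) and -1.33 ± 0.51. At the last of these the mean signal was 7.30 ± 0.31 (SD, n = 3) in the static and 5.96 ± 0.98 (SD, n = 3) in the rotated samples, with no overlap, and the difference was -0.85 without rotated 1 and -0.55 once the actin ratio was a covariate. The 3 tested probe sets of this gene thus differed in size, and the untested dim ones stood at 0.50 and -0.40. Itga5, the fibronectin receptor subunit, had a wide spread in the rotated samples (7.33, 8.20 and 9.58, against 8.75, 8.45 and 9.15), a difference of -0.41 ± 0.50, and probe sets in both directions. Without rotated 1 its difference was 0.11. Itga8, which binds nephronectin, differed by -0.66 ± 0.38, its rotated signals of 6.69, 6.25 and 6.25 lying below the static 6.79, 7.61 and 6.76. Without static 2 that difference was -0.38. In the deposited values of Itga8 the groups overlapped.

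Itga4 and Itga9, which pair with beta subunits to bind VCAM1 and tenascin, were close to the filter's threshold of 5.96. Itga4 ranged from 4.86 to 7.43 in the static and from 4.71 to 7.02 in the rotated samples. Itga9 differed by 0.60 ± 0.51, with its rotated signals of 6.23, 6.59 and 6.25 inside the static range of 4.96 to 6.70. Neither gene separated the groups.

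**Figure D3:**
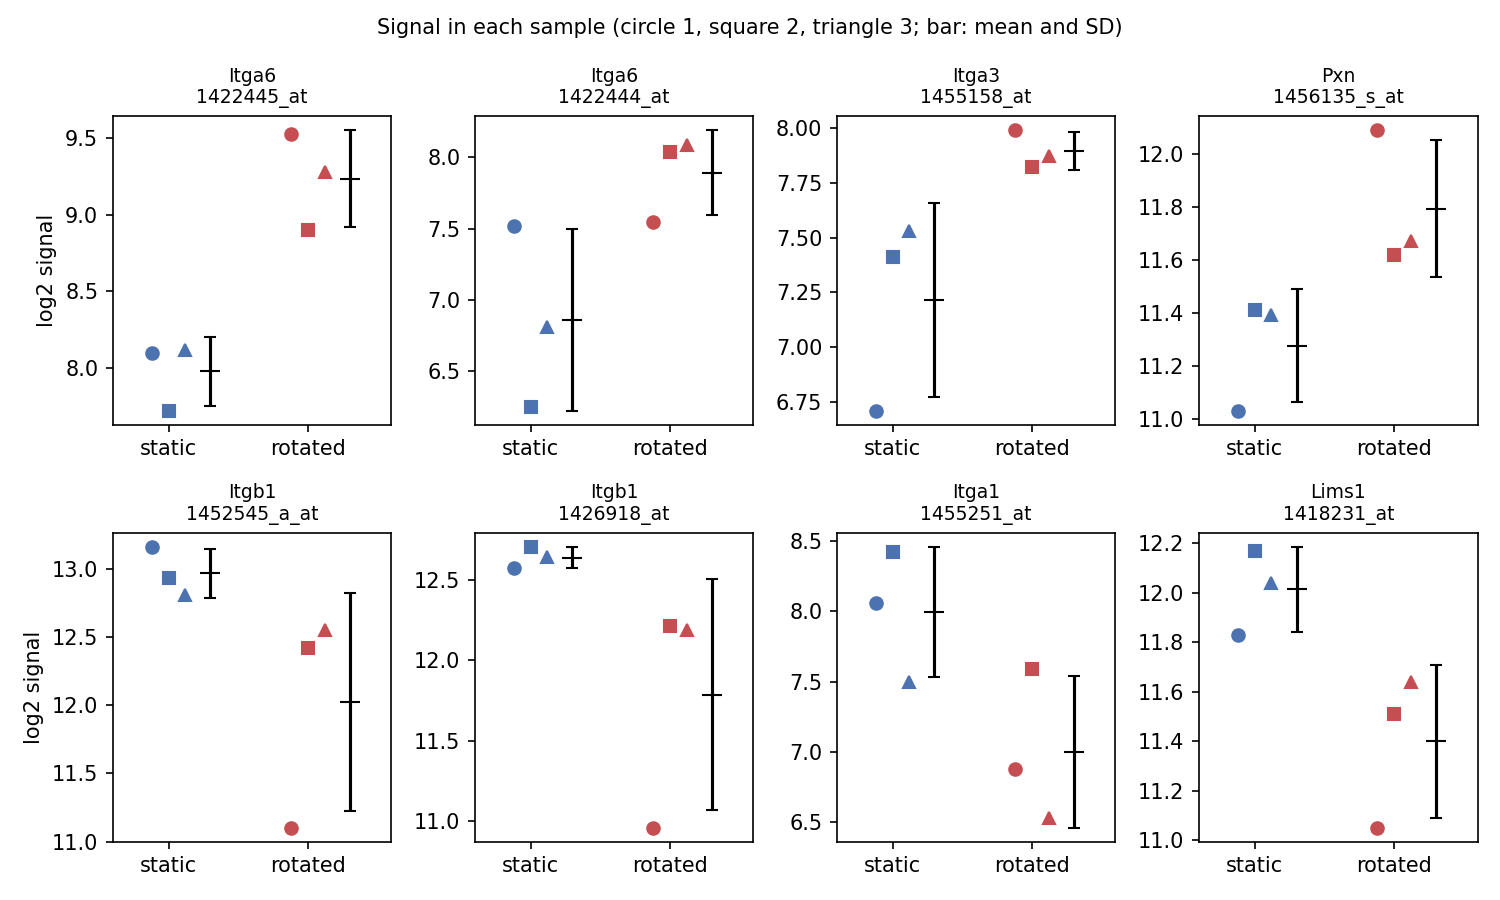
Log2 signal (vertical axis) of 8 probe sets in the 3 static (blue) and 3 rotated (red) samples; circles, squares and triangles are replicates 1, 2 and 3, and the black bar is the mean with its SD. Both Itga6 probe sets are higher in the rotated samples, while both Itgb1 probe sets are lower, with rotated 1 lowest.

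Of the beta subunits, Itgb1 was measured by 2 bright probe sets. The deposited signals of the brightest were 8138.2, 8054.2 and 6862.5 in the static and 2189.8, 5536.1 and 5844.5 in the rotated samples. On the normalized log2 scale these were 13.16, 12.93 and 12.81 against 11.10, 12.42 and 12.55. No rotated value reached the static range, and rotated 1 lay well below the other rotated arrays. The difference of -0.94 had a 95% confidence interval from -1.71 to -0.17 (unadjusted p 0.0221 and adjusted p 0.592 in limma). The next probe set read 12.57, 12.70 and 12.64 in the static and 10.96, 12.21 and 12.19 in the rotated samples, a difference of -0.84 ± 0.31. Without rotated 1, whose actin ratio was high, the differences of these probe sets were -0.48 ± 0.17 and -0.43 ± 0.16, and without static 1 and rotated 1 together -0.39 and -0.46. A fit that included the actin ratio gave -0.24 ± 0.20 and -0.21 ± 0.18, about their standard error. At both bright probe sets the direction was thus shared by all 3 rotated arrays, while much of the size came from 1 of them. The dimmer tested probe sets stood at -0.92 ± 0.49 and -0.22 ± 0.59, and at -0.29 ± 0.28 and 0.05 ± 0.66 without rotated 1. The untested dim ones stood at -0.27 and 0.66, the latter higher in the rotated samples without overlap.

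Itgb5, which pairs with the Itgav product to bind vitronectin, differed by -0.67 ± 0.30 at its brightest probe set (12.59, 12.65 and 13.13 against 11.44, 12.22 and 12.69). Rotated 3 lay inside the static range, and without rotated 1 the difference was -0.33. All 4 tested probe sets of Itgb5 had negative differences, from -0.67 to -0.12. Itgb8 and Itgb7 differed by 0.13 ± 0.28 and 0.13 ± 0.44. Both probe sets of Itgb3, the beta subunit of the classical vitronectin receptor, were below the filter, the first at 5.96, 6.95 and 4.53 in the static and 4.43, 6.27 and 6.47 in the rotated samples, and the groups overlapped in both.

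Itga1 and Itgb1 were the integrin subunits with negative differences at an unadjusted p under 0.05 in limma at their brightest probe set. The differences at the probe sets of Vcl were unlike in size. The mouse sequences before the starts of these genes let a reader see which short motifs of mechanically responsive and general transcription factors they hold. Each is the 250 bases before the annotated start from RefSeq (GRCm38.p6), 5′ to 3′ on the gene's strand, at chr13:115101965-115102214 (minus strand) for Itga1, chr8:128685404-128685653 (plus strand) for Itgb1 and chr14:20929148-20929397 (plus strand) for Vcl. Capitals mark matches, on either strand, to GGAATG (the TEAD core), TGANTCA (AP-1), TGTGGT (the RUNX core), GGGCGG (the GC box) or the CArG box of serum response factor.
Itga1: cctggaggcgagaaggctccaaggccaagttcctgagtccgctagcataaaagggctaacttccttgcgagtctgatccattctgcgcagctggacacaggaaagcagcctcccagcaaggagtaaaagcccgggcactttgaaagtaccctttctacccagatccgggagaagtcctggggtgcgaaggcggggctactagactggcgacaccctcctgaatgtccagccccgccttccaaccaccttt
Itgb1: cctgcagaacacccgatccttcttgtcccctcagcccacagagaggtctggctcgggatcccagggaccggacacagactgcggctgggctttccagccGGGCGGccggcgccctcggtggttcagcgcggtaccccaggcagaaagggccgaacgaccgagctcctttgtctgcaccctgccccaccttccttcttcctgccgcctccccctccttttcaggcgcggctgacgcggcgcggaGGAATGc
Vcl: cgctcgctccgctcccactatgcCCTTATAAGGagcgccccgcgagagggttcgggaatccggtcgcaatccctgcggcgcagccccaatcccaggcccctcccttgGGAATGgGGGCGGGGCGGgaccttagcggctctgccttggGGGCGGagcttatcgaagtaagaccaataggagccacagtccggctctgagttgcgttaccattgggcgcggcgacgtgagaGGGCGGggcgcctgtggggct
The Itga1 stretch held none of these motifs. That of Itgb1 held 1 TEAD core, at position -7 from the annotated start, and 1 GC box. That of Vcl held a CArG box at position -227, a TEAD core and 4 GC boxes, of which 2 overlap. Over 32851 promoter windows of this length 12.6% held the TEAD core, 6.75% AP-1, 14.0% the RUNX core, 32.7% the GC box and 1.47% the CArG box. Of 31 windows of 25 member genes, 2 held the TEAD core (Itgb1 and Vcl), 2 AP-1 (Cav2 and Zyx), 4 the RUNX core, 18 the GC box and 2 the CArG box (Vcl and Fermt2). A match is only a run of letters, and no binding was measured.

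The genes of proteins that couple integrins to actin gave differences from -0.52 to 0.16 by their brightest probe sets. Tln1, talin, which activates integrins by binding the beta tail, differed by -0.19 ± 0.29, and Fermt2, kindlin-2, which binds the same tail, by 0.09 ± 0.18 (95% confidence interval -0.33 to 0.50). Vcl, vinculin, which reinforces the talin link under load, differed by -0.09 ± 0.22 at its brightest probe set, with signals of 12.94, 13.35 and 12.80 against 12.66, 13.29 and 12.86. Its other probe set read 10.75, 11.14 and 10.54 in the static and 7.66, 10.37 and 10.12 in the rotated samples, a difference of -1.43 ± 0.61 with no overlap. Rotated 1 was more than 2 log2 units below the next array there, and the difference was -0.57 ± 0.24 without it and -0.11 ± 0.28 once the actin ratio was a covariate. Zyx, the tension-sensitive LIM protein zyxin, stood at 0.05 ± 0.37, and the tensin genes Tns1 and Tns3, which link integrin tails to actin, at -0.52 ± 0.40 and 0.16 ± 0.21. For Tns1 the difference was -0.10 without rotated 1. Its other tested probe sets stood at 0.81 ± 0.75 and -0.21 ± 0.30. Those of Fermt2 stood at -0.16 ± 0.21 and 0.81 ± 0.50, and that of Zyx at -0.51 ± 0.30. The other tested probe sets of Tln1 and Tns3 kept the direction of the brightest. None of these 6 genes had an unadjusted p under 0.05 at its brightest probe set.

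In the complex of integrin-linked kinase, PINCH and parvin, all 3 genes had negative differences, Parva turning to 0.09 with median centring. Lims1, the LIM adaptor PINCH-1, had signals of 12.85, 12.77 and 12.74 in the static and 12.42, 12.69 and 12.46 in the rotated samples at its brightest probe set, with no overlap and a difference of -0.26 ± 0.16. The next probe set read 11.83, 12.17 and 12.04 against 11.05, 11.51 and 11.64, a difference of -0.61 ± 0.21 (unadjusted p 0.0177 and adjusted p 0.592 in limma). The third read 11.42, 12.04 and 11.62 against 10.42, 11.26 and 11.19, a difference of -0.74 ± 0.27. At all 3 bright probe sets of Lims1 the rotated samples thus lay below the static ones after normalization, while the deposited values of the brightest overlapped. Without rotated 1 the differences were -0.21, -0.44 and -0.47. With median centring of the arrays they were -0.04, -0.43 and -0.59. The 2 dim probe sets stood at 0.24 ± 0.44 and -0.01 ± 0.37. Ilk, the scaffold pseudokinase, differed by -0.36 ± 0.23 (-0.14 without rotated 1), and Parva, the actin-binding alpha-parvin, by -0.06 ± 0.24, its other probe set by -0.65 ± 0.38 (-0.22 without rotated 1).

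Of the signalling scaffolds, Pxn had signals of 11.03, 11.41 and 11.39 in the static and 12.09, 11.62 and 11.67 in the rotated samples at its brightest probe set, with no overlap. The difference of 0.52 had a 95% confidence interval from 0.04 to 0.99 (unadjusted p 0.0359 and adjusted p 0.603 in limma) and was 0.24 without static 1 and rotated 1 together. The other Pxn probe sets stood at -0.09 ± 0.23 and -0.30 ± 0.58, and the mean over the 3 was 0.04, so the positive value belongs to 1 probe set. Bcar1, which encodes p130Cas, a scaffold that is phosphorylated on stretching, also differed between its probe sets, with 0.43 ± 0.26 at the brightest probe set (0.21 without rotated 1 and 0.08 with the actin covariate) and -0.05 ± 0.25 at the other. Src, the adhesion tyrosine kinase, differed by -0.07 ± 0.35. Cav1 and Cav2, the caveolins, differed by 0.10 ± 0.29 and 0.14 ± 0.17, and the dimmer probe set of Cav2 by -0.53 ± 0.36.

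**Figure D4:**
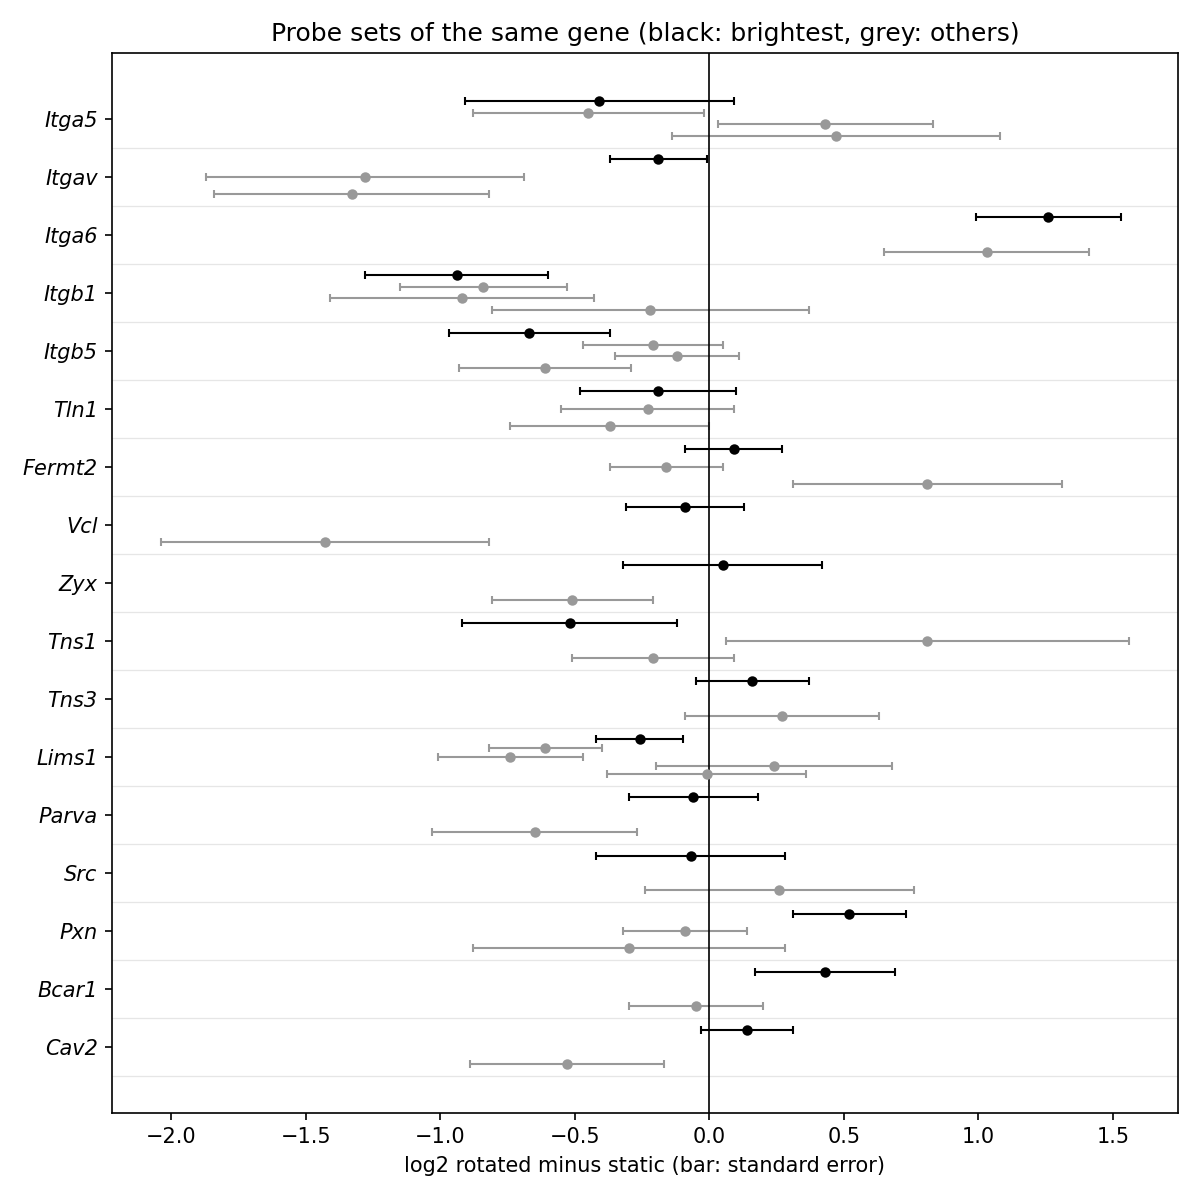
Log2 difference (rotated minus static) of every tested probe set of the 17 members with more than 1, with its standard error; black marks the brightest probe set of each gene and grey the others. All probe sets of Itga6 lie right of 0 and all of Itgb1, Itgb5 and Itgav left of it (the brightest of Itgav at 0.02 with median centring), while those of 9 genes fall on both sides.

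Of the 17 members with more than 1 tested probe set, 8 had all of them in 1 direction (Itga6 and Tns3 higher, Itgav, Itgb1, Itgb5, Tln1, Vcl and Parva lower) and 9 had them in both. With median centring the brightest probe sets of Itgav, Vcl and Parva stood at 0.02, 0.15 and 0.09. Over the 58 tested member probe sets, 10 (17.2%) had an unadjusted p under 0.05, 7 lower and 3 higher, against 8.25% of all probe sets (3.9% lower and 4.34% higher). Of these 10, a lower probe set of each of Itga1, Itgav and Lims1 rose above 0.05 in limma without rotated 1 (0.0605, 0.0823 and 0.0729). So did the higher one of Pxn (0.105). The groups were fully separated in 14 of these 58 (24.1%), 10 lower and 4 higher, against 15.1% of all probe sets (7.29% lower and 7.82% higher). Separation was counted on the normalized scale, and some of these overlapped in the deposited values, the second Itga6 probe set among them. Several of these probe sets belong to the same gene and are not independent.

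Other genes of the adhesion machinery were taken from lists by role, and 0 of their tested genes passed after adjustment in limma. Of 27 tested focal adhesion adaptors 4 stood higher and 3 lower at an unadjusted p under 0.05, where 4.49% of all named genes stood higher and 3.74% lower, with a median log2 difference of -0.06. The smallest p belonged to Tes, the LIM protein testin, at 0.81 ± 0.24, followed by Fermt3, the kindlin of blood cells, at 1.24 ± 0.51 (near the filter's threshold), and Rsu1, a partner of PINCH, at -0.53 ± 0.22. Among the 4 tested actin crosslinkers of adhesions, Actn1, alpha-actinin-1, which bundles actin at adhesions, was 1.70-fold higher (0.77 ± 0.19, unadjusted p 0.00312 and adjusted p 0.571 in limma). Its signals were 12.17, 12.12 and 12.01 in the static and 13.22, 12.70 and 12.67 in the rotated samples, without overlap, and its other 2 tested probe sets were higher too. Its difference was 0.59 without rotated 1 and 0.49 with the actin covariate. The related Actn4 and the filamin gene Flnc stood at 0.34 ± 0.23 and -0.37 ± 0.42, the former at 0.16 without static 1 and the latter at 0.14 without rotated 1.

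Kinases, GTPases and their regulators, 26 tested genes, included 1 at an unadjusted p under 0.05, Rhoa, the GTPase that drives stress fibres, at -0.94 ± 0.38 and at -0.53 without rotated 1. Rap1b, a GTPase of integrin activation, stood at -0.30 ± 0.15, and at -0.04 with median centring. In that list 11 genes stood higher and 15 lower, and its median was -0.12. Of 13 tested membrane partners of integrins, Cd151, the tetraspanin that binds laminin receptors, stood at 0.62 ± 0.22. Its difference was 0.43 without rotated 1 and 0.33 with the actin covariate, and 3 of its 4 other tested probe sets were higher too. Sdc2, syndecan-2, a heparan sulfate co-receptor, stood at -0.83 ± 0.31 (-0.44 without rotated 1). The tetraspanin gene Cd82 stood at -0.69 ± 0.34 and at -0.33 without rotated 1. Among 6 tested genes of caveolae, Cavin3 and Cavin1, coat proteins of the pits, stood at -1.10 ± 0.32 and -0.98 ± 0.41. Without rotated 1 they stood at -0.80 and -0.66, and with the actin covariate at -0.63 ± 0.32 and -0.50 ± 0.47. Cavin1 stood at -0.29 with array weights. Pacsin3 stood at 0.48 ± 0.33 and at 0.11 without static 1. The list of integrin subunits outside the members also held Itgbl1, an integrin-related secreted protein gene. Of the 5 tested genes of that list none had an unadjusted p under 0.05 in limma. Itga2b stood at -0.34 ± 0.25, Itgbl1 at -0.85 ± 0.83 (0.08 without rotated 1) and Itgae at -0.52 ± 0.53 (-0.07 without static 1). Itgb4, the other partner of the Itga6 product, was too dim to be tested.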

How the data were processed

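The authors deposited linear intensity values, 1 for each probe set of each array, made with software not given in the sources used here. With 2% of the values trimmed at either end the arrays all average 500.0, so they had been scaled. They were turned into log2(value + 16.6), with the 20th percentile over the table as offset, which understates differences of dim probe sets, and then quantile normalized. Control probe sets (64) and those with a mean below the 40th percentile (5.96) were left out. Gene symbols come from the platform's probe table, checked through gene identifiers in a RefSeq table (GRCm38.p6). A probe set with 1 symbol was named (34945 of 45101), and a gene is represented by its brightest tested probe set.

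The 2 groups were compared two-sided by limma 3.58.1 under R 4.3.3, with lmFit, a variance prior that follows intensity, and Benjamini-Hochberg adjustment over 27022 probe sets at 0.05. Differences are log2 rotated minus static with limma's standard error, tested on simulated data. All members are named; values per sample are given for members at an unadjusted p under 0.05 or without overlap and for some others chosen after their values were seen, and up to 3 genes with the smallest p in each further list. One result of the kinase list is not reported here. Members and lists were chosen with earlier results of these data known. The number of arrays limits the precision. Alternatives were other scalings, offsets, filters and variance models, the replicate block, weights for arrays, averaging a gene's probe sets, and leaving out samples; the actin covariate and leaving out static 1 and rotated 1 together were chosen after seeing the data. Deviations from the group means correlated at 0.196, 0.313 and 0.334 between same-numbered samples and at -0.186 to -0.094 between differently numbered ones. The numbers were thus taken as a possible pairing, which the main fit leaves out. The labels do not say what the numbers stand for.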

Additional observations from a re-analysis of the deposited data

How the results depend on the processing

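No member passed an adjusted p of 0.05 in limma under any alternative run. Over all probe sets 2 passed with the replicate block and 22 with array weights, and 0 under the others. The block left 5 members at an unadjusted p under 0.05, changed no call of a member and left all differences as they were (Itga6 at an adjusted p of 0.148). Itgb5 was among the 5, with an unadjusted p of 0.00754 in limma beside 0.0543 in the main fit. The count of members at an unadjusted p under 0.05 was 2 with median centring and 1 with the actin covariate, and 1 to 6 when a sample was left out. The members' median was 0.09 with median centring, which moved the median of all probe sets to 0.10, 0.08 with the actin covariate, -0.19 with the mean over probe sets, and -0.20 to 0.06 when a sample was left out. Of the 27 members 12 kept their sign under every alternative run, Itga1, Itga3, Itga6, Itgb1, Lims1 and Pxn among them, while 15 turned it under at least 1. With the actin covariate Itga5 stood at 0.41, Tln1 at 0.24, Vcl at 0.11, Tns1 at 0.13, Tns3 at -0.04, Parva at 0.05, Src at 0.11, Itgbl1 at 0.62 and Flnc at 0.39. With array weights Itga4 stood at 0.53, Itgb8 at -0.09, Vcl at 0.19, Zyx at -0.31 and Parva at 0.06. With median centring Itgav stood at 0.02, Vcl at 0.15, Parva at 0.09 and Src at 0.01, and with the values as deposited Itgb8 at -0.02 and Vcl at 0.01. With the mean over probe sets Itga5 stood at 0.01, Zyx at -0.23, Tns1 at 0.03, Src at 0.10 and Cav2 at -0.19. Without static 1 and rotated 1 together Itga5 stood at 0.09, Itgb8 at -0.01, Src at 0.25 and Flnc at 0.21. When a sample was left out, the ranges were -1.02 to 0.11 for Itga5, -0.88 to 0.41 for Itga4, -0.28 to 0.52 for Itgb7, -0.01 to 0.24 for Itgb8, -0.48 to 0.07 for Tln1, -0.05 to 0.19 for Fermt2, -0.27 to 0.07 for Vcl, -0.33 to 0.32 for Zyx, -0.24 to 0.12 for Parva, -0.38 to 0.12 for Src, -0.20 to 0.36 for Cav1, -0.66 to 0.14 for Flnc and -1.51 to 0.08 for Itgbl1. The cause of these turns was not tested. With array weights Ccn1 (-1.66) and Col4a1 (1.42) passed at an adjusted p of 0.0314.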

Other observations

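Matrix ligands of integrins, a list partly known from earlier results of these data, had 19 tested genes, of which 0 passed after adjustment in limma. At an unadjusted p under 0.05 there were 6 lower and 3 higher, against 3.74% lower and 4.49% higher over all named genes, and the median log2 difference was -0.28, beside 0.03 over all named genes. Ccn1, a matricellular ligand of the vitronectin and laminin receptors, stood at -1.66 ± 0.22 and Thbs2, thrombospondin-2, at -1.31 ± 0.27. Col4a1, a chain of basement membrane collagen, stood at 1.54 ± 0.21. In all 6 arrays these 3 genes separated the groups without overlap.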
